A study of Mus musculus with 8 samples.

Results

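RNA of whole testes from C57BL/6 male mice was compared between Dnmt3a mutants (KO, genotype Dnmt3A KO/KO) and wildtype animals (WT, Dnmt3A WT/WT) at 19 days post partum (dpp). The comparison used 4 of the 8 libraries of the series, 2 WT and 2 KO, and gene entries only, with entries for repeat families left out. The other 4 libraries, 2 WT and 2 KO at 25 dpp, entered the same fit and the test of whether the effect of the genotype differed between the ages. The labels do not say which exons were removed, whether a Cre or promoter limits the mutation to some cells, or whether the 2 libraries of a group came from separate animals, so p-values measure only the spread between these libraries. Gene counts per library were 27142989 and 31793256 for the WT libraries at 19 dpp, against 22515812 and 33192200 for KO.

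DNMT3A is a DNA methyltransferase that writes new methylation marks on unmethylated DNA, in male germ cells mainly before birth, when spermatogonial precursors have stopped dividing. In the young mouse testis the germ cells of the first wave move through their stages nearly in step, from spermatogonia into meiosis and on to round spermatids, beside Sertoli cells, Leydig cells and other somatic cells. At 19 dpp the most advanced germ cells of a normal testis are spermatocytes in the pachytene stage of meiosis, when homologous chromosomes are fully paired by the synaptonemal complex. In bulk tissue, fewer cells of a type and less RNA per cell cannot be told apart, and this holds for every value below.

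Levels are counts per library divided by its TMM-scaled size (CPM) and are given as replicate 1 and replicate 2 of each group. Each fold change is the log2 of KO over WT, printed with its standard error (SE), and comes from a quasi-likelihood fit in edgeR, with p-values adjusted by the Benjamini-Hochberg method over 23353 genes. A gene rose or fell where its adjusted p was under 0.05. In all, 2054 genes rose (8.8% of those tested) and 3091 fell (13.2%), and each of these genes had both KO libraries on 1 side of both WT libraries. So did 15518 of all 23353 genes tested, so this adds little to a call. The shares of 8.8% and 13.2% are the background for every count of list members below. The falls were the larger changes, with a median of −1.73 among genes that fell against 0.92 among genes that rose. More than 4-fold differences were found for 1373 genes that fell and 89 that rose.

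The libraries of a group were not equal, and the calls leaned on single libraries. Among genes that fell, WT replicate 1 was below WT replicate 2 for 83.3%, against 51.1% of all genes tested. Without KO replicate 1, edgeR called no gene in either direction, with 5256 genes at an unadjusted p under 0.05 and a lowest adjusted p of 0.08. Without KO replicate 2 there were 505 rises and 1142 falls, without WT replicate 2 608 and 1350, and without WT replicate 1 1319 and 2889. On the libraries less KO replicate 1 limma-voom called 0 genes and DESeq2 called 3743. Counts of list members called by edgeR at 19 dpp are therefore all 0 without that library. Other libraries, of 19 dpp unless 25 dpp is stated, are named if their omission changes a printed list count by more than 1.5 times. A second scaling, to the genes of the 2 Sertoli cell lists below, moved the median of all genes from 0 to −0.79 and gave 113 rises and 10119 falls. It sets those lists level by construction, and values under it are named as such. Scaling to total counts gave 1285 rises and 3417 falls.

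Dnmt3a itself (chromosome 12, 3806007 to 3914443, plus strand, mm10) stood at 147 and 141 CPM in WT against 114 and 112 CPM in KO (−0.35, SE 0.18, adjusted p = 0.201). The edgeR adjusted p was 0.0428 with only the 19 dpp libraries, and the fold change was −1.17 and called with Sertoli scaling. Its counts cover the whole gene, including exons that a deletion may leave in place, and do not check the genotype labels.

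To show what lay upstream of the genes that fell most, the 250 bases before the first RefSeq start site (GRCm38.p6, the assembly of mm10) were read for 12484 of the tested genes. The motifs searched, on both strands, were the binding element of MYB proteins (CAACGG with its variant TAACGG, and CAACTG with its variant TAACTG), the half-site of RFX factors (GTTGCC), the half-site of the cAMP response element, or CRE (TGACGT), the motif of STRA8 (CNCCTCAG) and the E-box CACGTG. MYBL1 (A-MYB) is the regulator known for switching on pachytene genes, and RFX2 a regulator of genes of cilia and sperm tails. Motifs on overlapping letters were counted for each motif. The windows of 5 genes that fell and are described below are printed 5′ to 3′ on the gene's strand, chosen to show windows with several motifs, with 1 and with none. Capitals mark the letters of a match, and a match is not evidence of binding.

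Ldhc, germ cell lactate dehydrogenase, chr7:46861013-46861262, plus strand: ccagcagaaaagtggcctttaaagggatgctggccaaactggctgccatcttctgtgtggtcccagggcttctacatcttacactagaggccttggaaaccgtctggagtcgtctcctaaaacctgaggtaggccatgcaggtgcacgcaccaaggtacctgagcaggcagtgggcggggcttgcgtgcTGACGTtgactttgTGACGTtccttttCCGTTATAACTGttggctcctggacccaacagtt

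Piwil1, a piRNA-binding protein of spermatocytes, chr5:128735996-128736245, plus strand: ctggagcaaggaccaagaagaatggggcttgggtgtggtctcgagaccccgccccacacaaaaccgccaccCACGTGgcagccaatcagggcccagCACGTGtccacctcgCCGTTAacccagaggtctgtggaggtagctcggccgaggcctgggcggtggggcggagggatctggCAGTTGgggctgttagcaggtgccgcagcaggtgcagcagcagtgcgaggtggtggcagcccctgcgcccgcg

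Rfx2, a transcription factor, chr17:56831009-56831258, minus strand: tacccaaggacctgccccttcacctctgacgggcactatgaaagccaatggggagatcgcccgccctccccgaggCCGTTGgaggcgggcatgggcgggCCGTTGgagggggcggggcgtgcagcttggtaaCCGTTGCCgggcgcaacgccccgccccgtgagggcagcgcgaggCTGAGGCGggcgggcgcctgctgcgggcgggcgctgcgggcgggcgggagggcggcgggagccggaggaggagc

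Ropn1l, a sperm tail protein, chr15:31453690-31453939, minus strand: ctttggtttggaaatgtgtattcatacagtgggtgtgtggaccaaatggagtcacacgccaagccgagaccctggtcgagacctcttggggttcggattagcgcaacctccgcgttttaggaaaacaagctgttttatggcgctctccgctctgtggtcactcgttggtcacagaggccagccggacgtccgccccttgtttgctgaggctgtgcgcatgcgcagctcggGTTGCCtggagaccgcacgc

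Crisp2, a sperm head and tail protein, chr17:40794147-40794396, minus strand: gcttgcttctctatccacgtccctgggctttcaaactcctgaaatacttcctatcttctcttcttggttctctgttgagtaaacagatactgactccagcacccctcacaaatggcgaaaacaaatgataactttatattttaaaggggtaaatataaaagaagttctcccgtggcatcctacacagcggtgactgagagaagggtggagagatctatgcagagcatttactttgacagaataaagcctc

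The Ldhc window held 2 MYB elements, side by side close to the start, and 2 CRE half-sites. The Piwil1 window held 2 MYB elements and 2 E-boxes, and that of Rfx2 held 3 MYB elements, 1 RFX half-site and 1 STRA8 motif. Ropn1l held 1 RFX half-site, and none of the motifs was found in the window of Crisp2. That window lies inside the GENCODE span of Crisp2 (40764020 to 40807003, minus strand), so the bases before the GENCODE start were not read. Across genes, a MYB element stood in 23.7% of the 27025 RefSeq windows outside chromosome 18 and in 21.5% of those of tested genes. Its share was 27.6% of the 1781 windows of genes that fell, against 18.3% of the 1467 windows of genes that rose. It was 34.4% of 561 windows for falls of more than 4-fold and 40.1% of 187 for falls of more than 16-fold. A window was matched for 561 of 1373 and 187 of 601 such genes, against 12484 of 23353 tested, so most of the largest falls are not covered. The RFX half-site followed the same order, with 10.7% of tested genes, 15%, 18.2% and 24.6% of the groups of falling genes, and 9.5% of genes that rose. The CRE half-site went the other way, from 9.2% of tested genes to 3.2% of those that fell by more than 16-fold. STRA8 motifs were found in 7.2% of tested genes and 8.3% of genes that fell, and E-boxes in 8.0% and 9.1%. Base composition differed with the size of the fall, since the median number of CpG sites per window was 14 in tested genes, 16 in those that fell and 7 in those that fell by more than 16-fold, and its part in these shares was not tested.

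Genes of germ cells that prepare for or enter meiosis were mostly lower in KO. Both KO libraries lay below both WT libraries for 11 of 15, against 7889 of all 23353 genes tested. Of these 15 genes of meiotic entry 7 fell and 0 rose, with a median of −0.93 (−1.74 with Sertoli scaling, against −0.79 for all genes). Dazl, an RNA-binding protein that licenses germ cells for meiosis, stood at 677 and 671 CPM in WT against 179 and 329 CPM in KO, a fall by 1.41 (SE 0.29, adjusted p = 0.0178). Meioc, whose product keeps cells in meiotic prophase, stood at 245 and 274 CPM in WT against 35.0 and 68.6 CPM in KO (−2.32, SE 0.31, adjusted p = 0.00758). In both genes the KO libraries lay below both WT libraries, and KO replicate 1 was the lower of the pair. Kit, the receptor of differentiating spermatogonia, stood at 98.5 and 94.5 CPM in WT against 51.1 and 70.8 CPM in KO (−0.66, SE 0.18, adjusted p = 0.0397). Stra8, the retinoic acid target that starts the meiotic programme, stood at 125 and 88.1 CPM in WT against 45.5 and 73.0 CPM in KO and did not pass (−0.84, SE 0.27, adjusted p = 0.0612). Dmrtb1, a regulator of the step from spermatogonia to meiosis, was at 38.7 and 65.5 CPM in WT against 6.92 and 21.5 CPM in KO (−1.86, SE 0.52, adjusted p = 0.0466). Ccnd2, a cyclin of spermatogonia and other dividing cells, lay the other way, at 72.0 and 63.4 CPM in WT against 88.8 and 103 CPM in KO, and did not pass (0.50, SE 0.24, adjusted p = 0.174; −0.32 with Sertoli scaling). The count of 7 was 4 without WT replicate 2 or without either KO library of 25 dpp, and 1 gene rose without either WT library of 25 dpp.

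Genes that make and place the DNA breaks of recombination fell in part. Of 8 tested, 5 fell and 0 rose, with a median of −1.13, and −1.94 with Sertoli scaling. Ankrd31, needed for breaks in the region shared by X and Y, stood at 73.9 and 113 CPM in WT against 18.2 and 32.1 CPM in KO (−1.89, SE 0.35, adjusted p = 0.0132). Ccdc36 (IHO1), a chromosome axis partner of the break machinery, fell from 39.4 and 36.3 CPM to 12.9 and 18.3 CPM (−1.28, SE 0.24, adjusted p = 0.0118). Mei1, an early factor of break formation, was at 41.9 and 35.0 CPM in WT against 12.5 and 20.7 CPM in KO (−1.21, SE 0.25, adjusted p = 0.0157). Zcwpw1, a reader of the histone marks at recombination hotspots, was at 174 and 149 CPM in WT against 57.5 and 99.4 CPM in KO (−1.04, SE 0.26, adjusted p = 0.0296). In all 4 genes the KO library nearest to WT was replicate 2.

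The chromosome axis and the synaptonemal complex were lower almost as a whole. Of the 12 genes of this list 10 fell, with a median of −2.0 (−2.81 with Sertoli scaling). The geometric mean of the list was 108 and 117 CPM in WT against 25.7 and 44.7 CPM in KO. Sycp1, the transverse filament, stood at 288 and 416 CPM in WT against 58.2 and 104 CPM in KO (−2.11, SE 0.34, adjusted p = 0.00966). Sycp3, of the lateral element, stood at 380 and 327 CPM in WT against 52.5 and 108 CPM in KO (−2.14, SE 0.34, adjusted p = 0.00951). In both genes each KO library lay below each WT library, and KO replicate 1 was the lowest of the 4. The HORMA proteins mark axes that have not yet paired, and Hormad1 fell from 228 and 266 CPM to 30.5 and 65.7 CPM (−2.36, SE 0.37, adjusted p = 0.00999). Hormad2 fell from 49.2 and 47.1 CPM to 6.46 and 13.1 CPM (−2.30, SE 0.33, adjusted p = 0.00792). Fkbp6, a co-chaperone also linked to the piRNA pathway, did not pass, with 191 and 170 CPM in WT against 123 and 155 CPM in KO (−0.38, SE 0.16, adjusted p = 0.139).

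Cohesin rings hold sister chromatids together, and subunits made for meiosis replace the mitotic ones in spermatocytes. Of 5 tested meiotic genes 4 fell, and of 8 mitotic ones 0 fell and 1 rose, so that the medians were −1.41 and −0.24 (−2.22 and −1.06 with Sertoli scaling). Smc1b was at 212 and 247 CPM in WT against 63.4 and 109 CPM in KO (−1.41, SE 0.28, adjusted p = 0.0161). Sgol2a, which protects meiotic cohesin at centromeres, fell from 51.1 and 70.1 CPM to 16.4 and 22.8 CPM (−1.63, SE 0.23, adjusted p = 0.00758). Rad21l, an early prophase subunit, fell from 28.7 and 20.01 CPM to 8.22 and 13.1 CPM (−1.19, SE 0.33, adjusted p = 0.0396). Rec8 was the meiotic member without a fall, at 26.9 and 36.9 CPM in WT against 32.7 and 43.3 CPM in KO, with groups that overlap (0.26, SE 0.35, adjusted p = 0.655). The mitotic subunit Smc1a, on the X chromosome, stood at 60.0 and 60.3 CPM in WT against 86.8 and 81.1 CPM in KO (0.48, SE 0.14, adjusted p = 0.0474), and its value was −0.35 with Sertoli scaling. Without WT replicate 2 the meiotic count was 2. The rise of Smc1a was not called without that library, KO replicate 2 or either KO library of 25 dpp, and 2 mitotic genes rose without either WT library of 25 dpp. With Sertoli scaling 0 mitotic genes rose and 5 fell.

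Strand exchange and crossover genes act after the breaks are made, and 17 of 20 tested fell, with a median of −1.60 (−2.42 with Sertoli scaling). Msh4, which stabilises crossover intermediates, showed a fall by 2.98 (SE 0.40, adjusted p = 0.00758), from 28.04 and 39.9 CPM to 2.73 and 5.82 CPM. Meiob, a single-strand DNA binding partner, stood at 54.6 and 55.0 CPM in WT against 5.45 and 14.2 CPM in KO (−2.47, SE 0.43, adjusted p = 0.0116). Hfm1, a crossover helicase, stood at 146 and 176 CPM in WT against 22.1 and 40.5 CPM in KO (−2.36, SE 0.32, adjusted p = 0.00768). Of the genes shared with DNA repair in dividing cells, Brca2 was at 154 and 153 CPM in WT against 78.2 and 94.4 CPM in KO (−0.83, SE 0.16, adjusted p = 0.0132). Dmc1, the meiotic recombinase, was at 103 and 80.8 CPM in WT against 27.1 and 54.4 CPM in KO (−1.17, SE 0.32, adjusted p = 0.0417). The count of 17 was 10 without WT replicate 2.

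The piRNA pathway cuts transcripts of transposons and, in pachytene cells, makes a large class of small RNAs from dedicated loci. Of 22 tested genes 20 fell, with a median of −2.03 (−2.84 with Sertoli scaling), and they covered a wide range. Piwil1 (MIWI), which binds pachytene piRNAs, stood at 194 and 561 CPM in WT against 5.70 and 12.8 CPM in KO (−5.34, SE 0.74, adjusted p = 0.00813). Tdrd6, a Tudor protein of the chromatoid body (chromosome 17, 43615335 to 43630299, minus strand, mm10), stood at 37.5 and 136 CPM in WT against 1.43 and 0.965 CPM in KO (−6.20, SE 0.81, adjusted p = 0.00792). In both genes WT replicate 1 was well below WT replicate 2, while both KO libraries were far below either. Piwil2 (MILI), present already in spermatogonia, had 408 and 538 CPM in WT against 100 and 157 CPM in KO (−1.88, SE 0.28, adjusted p = 0.00862). Mov10l1, the helicase that starts piRNA processing, had 287 and 350 CPM in WT against 54.8 and 104 CPM in KO (−2.0, SE 0.33, adjusted p = 0.0103). Pld6, a mitochondrial nuclease of the same step, fell from 28.8 and 34.8 CPM to 6.71 and 7.27 CPM (−2.18, SE 0.17, adjusted p = 0.00714), and Tdrd1 from 175 and 377 CPM to 48.8 and 73.7 CPM (−2.17, SE 0.45, adjusted p = 0.0197). Pnldc1, which trims piRNA ends, did not share this, at 30.9 and 28.7 CPM in WT against 28.8 and 34.1 CPM in KO (0.08, SE 0.20, adjusted p = 0.840; −0.74 with Sertoli scaling). Morc1, a nuclear silencer of transposons and the other member without a call, was at 22.4 and 16.9 CPM in WT against 13.8 and 16.7 CPM in KO and did not pass (−0.36, SE 0.23, adjusted p = 0.290).

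**Figure D1:**
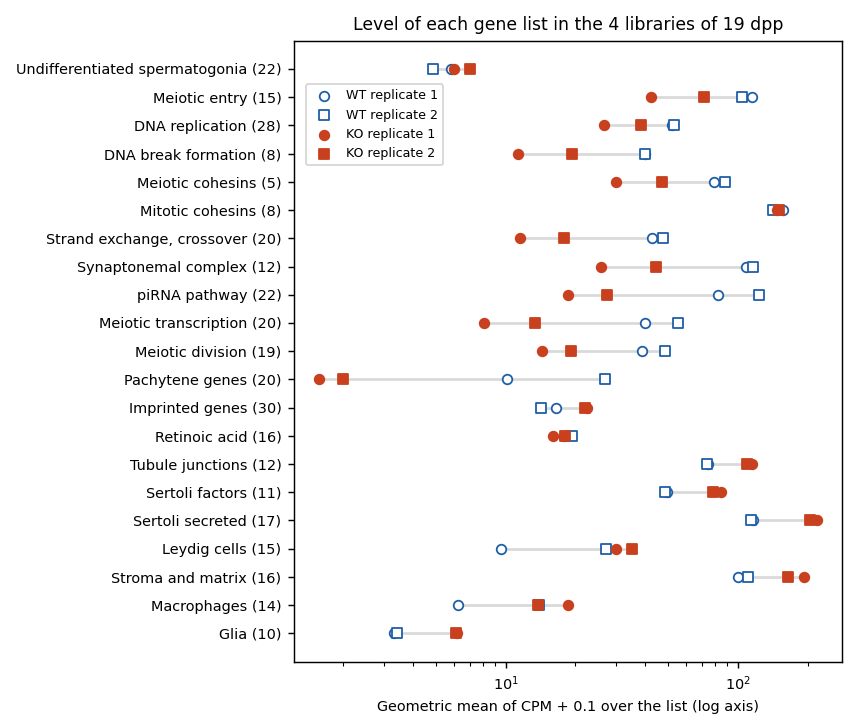
Geometric mean level of gene lists in each of the 4 libraries at 19 dpp (CPM plus 0.1, log axis; 1 point per library, n = 2 per group). Germ cell lists from meiotic entry to pachytene lie lower in both KO libraries, as for the synaptonemal complex with 108 and 117 CPM in WT against 25.7 and 44.7 CPM in KO. The secreted genes of Sertoli cells lie higher under this scaling. With Sertoli scaling, which is built on them, their median is near 0 by construction.

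Regulators of meiotic transcription fell in 17 of 20 cases, with a median of −2.24 (−3.05 with Sertoli scaling). Mybl1 changed less than the median of the list, at 82.8 and 110 CPM in WT against 52.8 and 57.9 CPM in KO (−0.80, SE 0.19, adjusted p = 0.0255). Several other regulators of the list had larger falls. Tcfl5 was at 66.9 and 108 CPM in WT against 12.2 and 22.5 CPM in KO (−2.33, SE 0.36, adjusted p = 0.00956). Rfx2 was at 45.2 and 88.5 CPM in WT against 6.16 and 8.80 CPM in KO (−3.15, SE 0.39, adjusted p = 0.00755). Rfx4 (chromosome 10, 84756062 to 84906538, plus strand, mm10) was at 15.9 and 28.3 CPM in WT against 0.545 and 1.25 CPM in KO (−4.56, SE 0.52, adjusted p = 0.00714). The related Rfx3, used in many ciliated cells, did not pass, at 26.5 and 23.5 CPM in WT against 18.9 and 23.0 CPM in KO (−0.25, SE 0.24, adjusted p = 0.494). The partners Zfp541 and Kctd19, of a histone deacetylase complex of pachytene cells, both fell. Zfp541 had 102 and 106 CPM in WT against 14.9 and 31.6 CPM in KO (−2.16, SE 0.34, adjusted p = 0.00943), and Kctd19 had 143 and 227 CPM in WT against 4.74 and 14.9 CPM in KO (−4.22, SE 0.54, adjusted p = 0.00768). Hsf5, a heat shock factor family member of spermatocytes, went from 66.5 and 105 CPM to 4.23 and 10.6 CPM (−3.51, SE 0.46, adjusted p = 0.00780). Brdt, the testis bromodomain protein, went from 133 and 174 CPM to 20.4 and 33.8 CPM (−2.50, SE 0.27, adjusted p = 0.00714). Tbpl1, a TBP-related factor, fell by 0.99 (SE 0.20, adjusted p = 0.0134), from 71.0 and 88.2 CPM to 36.9 and 43.0 CPM.

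Genes of the meiotic divisions fell in 12 of 19 cases, with a median of −1.03 (−1.84 with Sertoli scaling). Hspa2, a chaperone that spermatocytes need to activate CDK1, stood at 284 and 590 CPM in WT against 41.2 and 59.8 CPM in KO (−3.11, SE 0.47, adjusted p = 0.00925). Nek2, a centrosome kinase, fell from 125 and 167 CPM to 21.4 and 34.9 CPM (−2.37, SE 0.27, adjusted p = 0.00714). Aurka, a spindle kinase, stood at 33.9 and 48.7 CPM in WT against 8.30 and 13.7 CPM in KO (−1.91, SE 0.28, adjusted p = 0.00811). Cks2, a CDK subunit, stood at 68.9 and 113 CPM in WT against 21.5 and 25.3 CPM in KO (−1.95, SE 0.29, adjusted p = 0.00847). Cdc25a, a phosphatase also used in mitotic cycles, did not pass, at 68.9 and 70.7 CPM in WT against 76.8 and 77.9 CPM in KO (0.15, SE 0.14, adjusted p = 0.487; −0.68 with Sertoli scaling). Of 28 tested genes of DNA replication and proliferation, which all dividing cells use, 12 fell and 0 rose, with a median of −0.70 (−1.51 with Sertoli scaling), and 4 fell without WT replicate 2, while 1 rose without WT replicate 1 of 25 dpp.

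Pachytene genes had the lowest median of the lists. Of 20 pachytene genes 16 fell, with a median of −4.04 (−4.86 with Sertoli scaling), and 8 fell without KO replicate 2. Theg, without counts in WT, entered this median with its fitted value. The geometric mean was 10.2 and 26.8 CPM in WT against 1.57 and 2.00 CPM in KO. Ybx2, which stores translationally silent mRNA, stood at 264 and 565 CPM in WT against 16.4 and 34.6 CPM in KO (−4.02, SE 0.51, adjusted p = 0.00758). Clgn, a chaperone for sperm surface proteins, stood at 175 and 395 CPM in WT against 10.98 and 22.1 CPM in KO (−4.10, SE 0.56, adjusted p = 0.00811). Ropn1l stood at 56.1 and 127 CPM in WT against 4.82 and 6.08 CPM in KO (−4.06, SE 0.49, adjusted p = 0.00755). Crisp2 and Spag17, the latter of the sperm tail axoneme, ranked among the largest falls of genes above 50 CPM in WT. Crisp2 went from 30.6 and 129 CPM to 1.09 and 1.02 CPM (−6.24, SE 0.83, adjusted p = 0.00811), and Spag17 from 16.1 and 87.6 CPM to 1.05 and 0.795 CPM (−5.83, SE 1.03, adjusted p = 0.0126). Prss50, a testis serine protease, fell by 1.80 (SE 0.34, adjusted p = 0.0140), from 110 and 95.8 CPM to 18.7 and 40.4 CPM. The geometric means of the acrosome and spermatid lists were low in all 4 libraries. In the order WT then KO, the acrosome list had 1.35, 2.25, 0.522 and 0.707 CPM. The spermatid list had 0.434, 0.455, 0.318 and 0.363 CPM in that order. In these lists 2 of 12 and 4 of 21 members had no count in any of the 4 libraries. Among the 12 acrosome genes 5 fell, with a median of −2.32 (−2.80 with Sertoli scaling). Among the 21 spermatid genes 3 fell, against 13.2% of all genes tested. Without KO replicate 2 both numbers of falls were lower. That of spermatid genes was also lower without WT replicate 2 or either KO library of 25 dpp.

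In the ADAM family of membrane proteases, members made mainly in germ cells were the ones with large falls. Of 20 members made mainly in male germ cells, 7 fell and 0 rose, and another 7 had no count in any of the 4 libraries, having passed the filter on low counts only through 25 dpp. Adam5 stood at 17.4 and 119 CPM in WT against 1.05 and 1.16 CPM in KO (−5.93, SE 1.10, adjusted p = 0.0141). Adam32 stood at 11.1 and 54.4 CPM in WT against 0.377 and 0.483 CPM in KO (−6.22, SE 1.02, adjusted p = 0.0109). The count of 7 was 1 without KO replicate 2. Of 11 members with broad expression 3 rose and 1 fell, against 8.8% and 13.2% of all genes tested, with a median of 0.28, and −0.55 with Sertoli scaling. Of the widely used sheddases, Adam9 stood at 80.7 and 88.8 CPM in WT against 122 and 119 CPM in KO, and Adam10 at 163 and 158 CPM in WT against 256 and 233 CPM in KO. Their fold changes were 0.50 (SE 0.14, adjusted p = 0.0404) and 0.61 (SE 0.14, adjusted p = 0.0198), and both turned negative with Sertoli scaling (−0.32 and −0.22). Adam17, another such sheddase, was not called, at 85.6 and 85.5 CPM in WT against 92.1 and 89.0 CPM in KO (0.08, SE 0.13, adjusted p = 0.721; −0.74 with Sertoli scaling). Adam12, a protease of stromal and muscle cells, rose from 8.48 and 15.2 CPM to 39.0 and 36.5 CPM (1.67, SE 0.37, adjusted p = 0.0194), and the member that fell was Adam11. None of these 11 was called without KO replicate 2 or without WT replicate 1, and none fell without WT replicate 2 or either KO library of 25 dpp. With Sertoli scaling 0 rose and 4 fell.

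**Figure D2:**
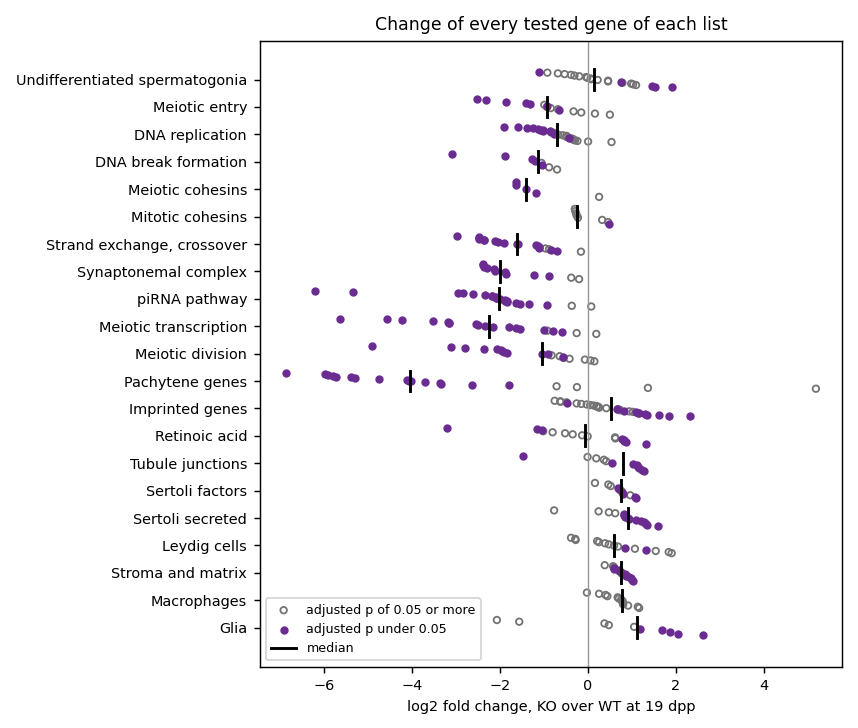
Log2 fold change of KO over WT at 19 dpp for every tested gene of the lists (1 point per gene; the vertical mark is the list's median, n = 2 libraries per group). Lists of meiosis lie left of 0, with medians from −0.93 for meiotic entry to −4.04 for pachytene genes, and those of Sertoli, junction, stromal and macrophage genes lie right of 0, from 0.75 to 0.91. The latter had −0.07 to 0.08 with Sertoli scaling, which sets the Sertoli lists level by construction.

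Spermatocytes replace several enzymes and ribosomal proteins of the rest of the body with germ cell copies, and the pairs offer a view within each library. The share of the germ cell copy is its level over the sum of both, with counts divided by gene length. For lactate dehydrogenase the share of Ldhc was 77.9% and 84.1% in WT against 10.01% and 16.8% in KO. Ldhc went from 139 and 538 CPM to 4.40 and 6.30 CPM (−5.97, SE 0.84, adjusted p = 0.00825), while Ldha stood at 82.6 and 213 CPM in WT against 82.9 and 65.6 CPM in KO, with no call (−0.99, SE 0.45, adjusted p = 0.165). For the pyruvate dehydrogenase subunit the share of Pdha2 was 72.6% and 83.7% in WT against 13.4% and 23.2% in KO. Pdha2 fell from 54.0 and 102 CPM to 5.74 and 9.71 CPM (−3.33, SE 0.44, adjusted p = 0.00810), and its X-linked partner Pdha1 was at 32.4 and 31.7 CPM in WT against 58.9 and 50.9 CPM in KO (0.78, SE 0.17, adjusted p = 0.0181). No KO share overlapped a WT share in either pair. A share is a ratio within 1 library and does not depend on the scaling between libraries, and it shows unequal change of the 2 copies, not which of them changed.

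The respiratory chain has such copies at several steps. Testis cytochrome c, Cyct, held 41.0% and 55.2% of its pair in WT and 4.4% and 6.9% in KO, with a fall from 29.8 and 52.9 CPM to 4.07 and 5.99 CPM (−3.03, SE 0.36, adjusted p = 0.00714), and its partner Cycs rose from 223 in both WT libraries to 457 and 420 CPM (0.98, SE 0.17, adjusted p = 0.0106). Cox6b2, a subunit of cytochrome c oxidase, held 39.8% and 54.1% in WT against 6.1% and 8.9% in KO and fell by 3.27 (SE 0.39, adjusted p = 0.00732), while Cox6b1 did not pass (0.24, SE 0.14, adjusted p = 0.253). Cox8c held 58.0% and 78.9% in WT against 4.2% and 7.2% in KO and fell by 4.82 (SE 0.57, adjusted p = 0.00732), while Cox8a did not pass (0.54, SE 0.17, adjusted p = 0.0544). Cox7b2, with 85.4% and 90.1% in WT against 21.7% and 41.7% in KO, fell by 3.11 (SE 0.46, adjusted p = 0.00896), while X-linked Cox7b rose by 0.80 (SE 0.18, adjusted p = 0.0189). Slc25a31, the germ cell ADP/ATP carrier, had the smallest shift of these, from 45.0% and 41.1% in WT to 10.9% and 17.7% in KO, with a fall by 1.39 (SE 0.24, adjusted p = 0.00976) against a rise by 0.79 (SE 0.18, adjusted p = 0.0214) of X-linked Slc25a5. With Sertoli scaling the partners that rose, apart from Cycs, had values of −0.05 (Pdha1), −0.02 (Cox7b) and −0.04 (Slc25a5), and Cox6b1 and Cox8a had −0.58 and −0.28.

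Germ cell copies of X-linked genes stand in while the X chromosome is silent in pachytene cells. In the 10 tested pairs of a list of such copies 8 germ cell copies fell and 0 rose, and 4 X-linked partners rose, 0 fell and 6 were not called. The ribosomal pairs moved alike. Rpl10l held 37.96% and 47.8% of its pair in WT and 6.5% and 9.99% in KO, and fell from 62.4 and 98.1 CPM to 11.9 and 18.1 CPM (−2.42, SE 0.35, adjusted p = 0.00820). Rpl39l held 58.8% and 65.9% in WT against 13.1% and 21.9% in KO, and fell from 48.2 and 72.3 CPM to 9.31 and 17.0 CPM (−2.19, SE 0.32, adjusted p = 0.00811). Their X-linked partners rose, Rpl10 by 0.67 (SE 0.14, adjusted p = 0.0152) and Rpl39 by 0.78 (SE 0.14, adjusted p = 0.0106), and had −0.15 and −0.05 with Sertoli scaling. Tktl2, a transketolase-like gene, fell from 93.7 and 109 CPM to 7.59 and 16.6 CPM (−3.05, SE 0.38, adjusted p = 0.00755). In that pair the X-linked partner Tktl1 is itself a germ cell gene, and it stood at 77.2 and 48.3 CPM in WT against 29.0 and 59.9 CPM in KO, with overlapping groups (−0.49, SE 0.36, adjusted p = 0.368). Cstf2t, a copy of an RNA cleavage factor gene, did not pass, with 61.1% and 73.3% of its pair in WT against 58.0% and 56.9% in KO (−0.48, SE 0.17, adjusted p = 0.0861). The X-linked partners Pgk1, Rbmx, Utp14a, Cstf2 and Cetn2 were not called either. Rpl10, Rpl39, Cycs, Cox7b, Ldha and Slc25a5 have processed pseudogenes of near-identical sequence, and how reads that fit several places were counted is not given in the sources used here, so levels of these partners are uncertain.

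**Figure D3:**
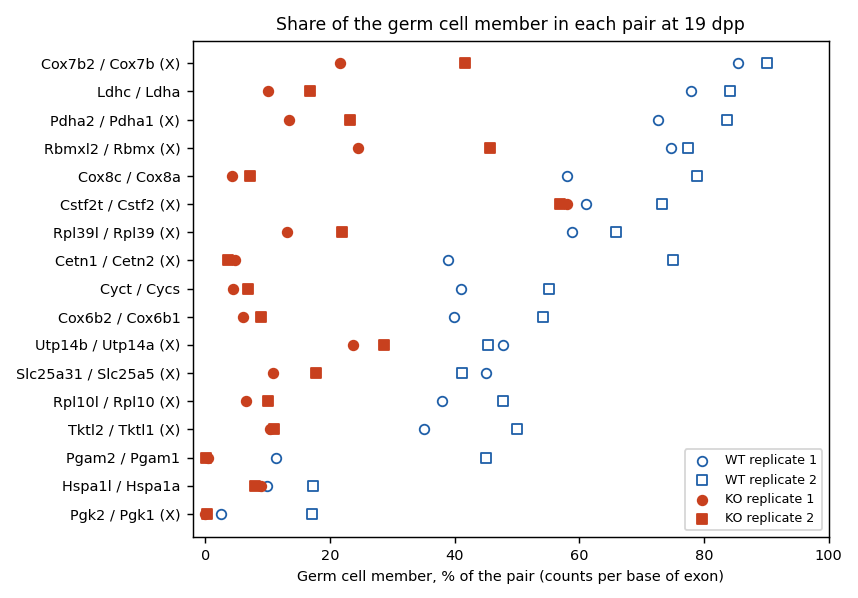
Share of the germ cell copy in pairs of germ cell and somatic genes in each 19 dpp library (percent of the summed level per gene length; 1 point per library, n = 2 per group). In the pairs named in the text both KO shares lie below both WT shares, as for Ldhc with 77.9% and 84.1% in WT against 10.01% and 16.8% in KO.

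The X chromosome held a larger share of genes that rose, and a smaller share that fell, than the autosomes, a difference given as a description without a test. Of 729 tested X-linked genes 147 rose (20.2%) and 8 fell (1.10%), against 1761 (11.1%) and 2267 (14.2%) of 15918 autosomal genes. The median was 0.36 on the X and 0.016 on the autosomes, and with Sertoli scaling it was −0.34 and −0.79, so that the sign on the X depends on the scaling while the X stayed above the autosomes. With Sertoli scaling 4 X-linked genes rose (0.549%) and 168 fell (23.0%), against 0.547% and 49.6% of autosomal genes. Among genes with at least 5 CPM, 35.4% of X-linked and 15.9% of autosomal genes rose. Maged1, a broadly expressed adaptor protein, went from 923 and 885 CPM to 1809 and 1806 CPM (1.00, SE 0.16, adjusted p = 0.00840). The X-linked genes that fell included germ cell genes. Scml2, a Polycomb family protein of spermatogonia, stood at 282 and 194 CPM in WT against 93.1 and 156 CPM in KO (−0.93, SE 0.27, adjusted p = 0.0463). Tex16 stood at 44.9 and 32.7 CPM in WT against 13.7 and 23.1 CPM in KO (−1.07, SE 0.29, adjusted p = 0.0345). Rps6ka6, a ribosomal S6 kinase, stood at 56.7 and 42.2 CPM in WT against 14.8 and 27.7 CPM in KO (−1.21, SE 0.30, adjusted p = 0.0289). Maged1, Tex16 and Rps6ka6 were chosen after their values were seen. The share that rose shrank to 4.30% of X-linked and 2.76% of autosomal genes without KO replicate 2, to 4.26% and 3.34% without WT replicate 2 and to 12.8% and 6.94% without WT replicate 1. The X-linked share that fell was 2.01% without KO replicate 2, and lay between 0.399% and 0.533% without either WT library of 19 dpp or either KO library of 25 dpp.

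**Figure D4:**
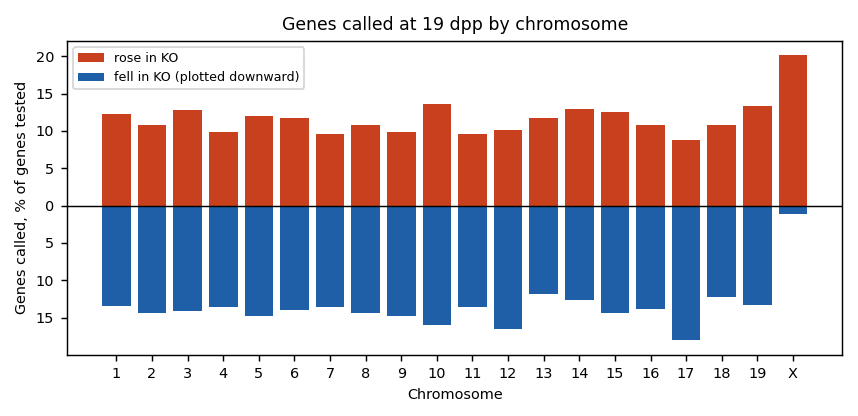
Share of tested genes that rose and that fell in KO at 19 dpp, by chromosome (percent of tested genes; bars start at 0). The X chromosome has 20.2% of genes that rose and 1.10% that fell, against 11.1% and 14.2% over the autosomes; with Sertoli scaling 0.549% of X-linked genes rose and 23.0% fell, against 0.547% and 49.6%.

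Undifferentiated spermatogonia include the stem cells of the testis, and their genes did not move as 1 group. Of 22 tested genes 4 rose and 1 fell, against 8.8% and 13.2% of all genes tested, with a median of 0.15. With Sertoli scaling 0 rose and 7 fell, with a median of −0.67. Gfra1, the receptor of the stem cell factor GDNF, was at 9.86 and 4.97 CPM in WT against 19.2 and 23.3 CPM in KO (1.52, SE 0.32, adjusted p = 0.0172). Shisa6 and Pax7, markers of rare stem-like cells, were low but higher in KO. Shisa6 had 0.899 and 1.29 CPM in WT against 3.31 and 4.97 CPM in KO (1.91, SE 0.37, adjusted p = 0.0131), and Pax7 had 0.546 and 0.776 CPM in WT against 1.72 and 1.90 CPM in KO (1.45, SE 0.37, adjusted p = 0.0304). The other gene that rose was Etv5, by 0.75. Id4, an inhibitor of differentiation that spermatocytes are also known to express, fell from 40.8 and 52.7 CPM to 19.6 and 23.9 CPM (−1.10, SE 0.21, adjusted p = 0.0128). The rises numbered 0 without KO replicate 2 and 1 without WT replicate 2, and the fall of Id4 was not called without WT replicate 2.

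Retinoic acid drives both the differentiation of spermatogonia and entry into meiosis, and the genes of its handling moved both ways, with 5 rises and 3 falls among 16 and a median of −0.07 (−0.88 with Sertoli scaling). Aldh1a1, the synthesis enzyme of Sertoli cells, stood at 563 and 769 CPM in WT against 1328 and 1026 CPM in KO (0.82, SE 0.20, adjusted p = 0.0240; −0.01 with Sertoli scaling). Aldh1a2, the synthesis enzyme of germ cells, stood at 106 in both WT libraries and at 42.3 and 60.7 CPM in KO (−1.05, SE 0.18, adjusted p = 0.0103). The 2 sources thus lay on opposite sides, the germ cell one lower and the Sertoli one higher under TMM scaling. Lrat, which stores vitamin A as esters, fell from 5.30 and 9.11 CPM to 0.671 and 0.880 CPM (−3.20, SE 0.64, adjusted p = 0.0151). Cyp26b1, which breaks retinoic acid down, was at 291 and 222 CPM in WT against 464 and 409 CPM in KO (0.77, SE 0.19, adjusted p = 0.0257; −0.06 with Sertoli scaling). Rara, a receptor, was at 56.2 and 60.8 CPM in WT against 112 and 96.3 CPM in KO (0.83, SE 0.17, adjusted p = 0.0157). Other calls of this list included a rise of Aldh1a3 and a fall of Rbp4. The rises and falls numbered 1 and 1 without KO replicate 2, 2 and 3 without WT replicate 2, and 3 and 3 without WT replicate 1. With Sertoli scaling 0 rose and 6 fell.

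Imprinted genes are expressed from 1 parental copy under the control of methylated regions, and in male germ cells DNMT3A is known to methylate such regions at H19 and at Dlk1 and Meg3. Of 30 tested imprinted genes 10 rose and 1 fell, with a median of 0.54 (−0.29 with Sertoli scaling, against −0.79 for all genes). H19 (chromosome 7, 142575529 to 142578143, minus strand, mm10), a noncoding RNA, stood at 30.0 and 16.2 CPM in WT against 88.2 and 77.2 CPM in KO (1.84, SE 0.43, adjusted p = 0.0267). Its neighbour Igf2 was low, at 2.25 and 2.47 CPM in WT against 2.10 and 2.16 CPM in KO (−0.15, SE 0.43, adjusted p = 0.865). On chromosome 12, the noncoding Meg3 (109541001 to 109571726, plus strand, mm10) rose from 89.0 and 57.2 CPM to 222 and 228 CPM (1.62, SE 0.29, adjusted p = 0.0121). In the same cluster Rian rose from 23.5 and 22.5 CPM to 60.1 and 53.3 CPM (1.30, SE 0.23, adjusted p = 0.0104). Dlk1 there (109452823 to 109463336, plus strand), expressed from the other parental copy and known in cells of the Leydig lineage, rose as well, from 47.4 and 13.1 CPM to 171 and 132 CPM (2.32, SE 0.57, adjusted p = 0.0316). Genes of both parental origins were thus higher in this cluster. Rasgrf1 was at 2.76 and 1.58 CPM in WT against 1.30 and 1.505 CPM in KO (−0.62, SE 0.54, adjusted p = 0.454).

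Other imprinted genes that rose lie outside those domains. Ndn was at 21.4 and 18.7 CPM in WT against 47.0 and 42.3 CPM in KO (1.15, SE 0.23, adjusted p = 0.0141). Plagl1, a zinc finger regulator of growth, was at 24.9 and 22.6 CPM in WT against 55.3 and 49.2 CPM in KO (1.14, SE 0.20, adjusted p = 0.0102). Copg2, a coat protein gene, fell from 162 and 180 CPM to 117 and 129 CPM (−0.48, SE 0.12, adjusted p = 0.0303), a fall that was lost without KO replicate 2, either WT library of 19 dpp or either KO library of 25 dpp, while the falls numbered 2 without WT replicate 2 of 25 dpp. Zdbf2 did not pass, at 90.7 and 101 CPM in WT against 62.4 and 74.5 CPM in KO (−0.48, SE 0.15, adjusted p = 0.0575). The stromal list, whose cells express several imprinted genes, was higher in the same libraries, at 100 and 110 CPM in WT against 193 and 165 CPM in KO, and its part in these rises was not tested. The count of 10 was 4 without KO replicate 2, 4 without WT replicate 2 and, with Sertoli scaling, 1 rise, of Meg3, beside 8 falls.

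Of 19 tested genes of DNA methylation and its removal 2 rose and 2 fell, against 8.8% and 13.2% of all genes tested, with a median of −0.07. With Sertoli scaling 0 rose and 12 fell, with a median of −0.90. Dnmt1, the maintenance enzyme, did not pass, at 195 and 207 CPM in WT against 129 and 180 CPM in KO (−0.38, SE 0.17, adjusted p = 0.139). Of the 3 dioxygenases that oxidise methylated cytosine 2 rose. Tet2 stood at 36.0 and 25.0 CPM in WT against 66.5 and 55.1 CPM in KO (0.99, SE 0.23, adjusted p = 0.0232), and Tet3 at 149 and 135 CPM in WT against 232 and 236 CPM in KO (0.72, SE 0.19, adjusted p = 0.0359; −0.11 with Sertoli scaling). Tet1 did not pass, at 13.7 and 12.0 CPM in WT against 23.2 and 18.2 CPM in KO (0.69, SE 0.26, adjusted p = 0.0990; −0.14 with Sertoli scaling). The falls were of Uhrf1 and Nsd2. The rises numbered 0 without KO replicate 2 or WT replicate 2, 1 without WT replicate 1 or either KO library of 25 dpp, and 4 and 3 without WT replicate 1 and 2 of 25 dpp, and the falls numbered 1 without WT replicate 2.

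Sertoli cells support the germ cells of each tubule, and their genes were higher under TMM scaling. Sertoli scaling uses the genes of the 2 lists below, so their medians near 0 under it were set by construction. Of 11 Sertoli transcription factors and related genes 6 rose and 0 fell, with a median of 0.75 (−0.07 with Sertoli scaling). Sox9 was at 88.4 and 67.0 CPM in WT against 179 and 148 CPM in KO (1.07, SE 0.20, adjusted p = 0.0117), and Gata4 at 104 and 82.8 CPM in WT against 218 and 177 CPM in KO (1.08, SE 0.21, adjusted p = 0.0125). Wt1 was at 216 and 178 CPM in WT against 331 and 317 CPM in KO (0.72, SE 0.17, adjusted p = 0.0226; −0.11 with Sertoli scaling). Of 17 secreted proteins and receptors 12 rose, with a median of 0.91 (0.08 with Sertoli scaling). Of these 17 genes, 16 had a positive and 1 a negative fold change under TMM scaling. Amh, the hormone of immature Sertoli cells, stood at 42.2 and 34.9 CPM in WT against 99.6 and 92.1 CPM in KO (1.31, SE 0.19, adjusted p = 0.00758). The ligands that Sertoli cells send to spermatogonia and Leydig cells rose too. Gdnf went from 8.32 and 5.23 CPM to 24.7 and 16.3 CPM (1.59, SE 0.35, adjusted p = 0.0197), Kitl from 157 and 147 CPM to 412 and 321 CPM (1.27, SE 0.21, adjusted p = 0.00956), and Dhh from 105 and 84.4 CPM to 239 and 198 CPM (1.21, SE 0.19, adjusted p = 0.00884). The count of 6 was 2 without KO replicate 2 and 1 without WT replicate 2, and the count of 12 was 7 without KO replicate 2.

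Junction genes of the tubule wall, which form the blood-testis barrier, rose in 7 of 12 cases, with a median of 0.79 (−0.03 with Sertoli scaling). Gja1 (connexin 43) stood at 168 and 187 CPM in WT against 462 and 393 CPM in KO (1.27, SE 0.16, adjusted p = 0.00714). Cldn11, the claudin of Sertoli tight junctions, stood at 345 and 333 CPM in WT against 708 and 673 CPM in KO (1.03, SE 0.15, adjusted p = 0.00768), and Ocln at 51.6 and 39.0 CPM in WT against 116 and 98.1 CPM in KO (1.24, SE 0.22, adjusted p = 0.0106). The nectins bridge Sertoli and germ cells from the 2 sides. Pvrl2 (nectin 2), of the Sertoli side, rose from 113 and 122 CPM to 277 and 245 CPM (1.15, SE 0.13, adjusted p = 0.00714), and Nectin3, of the germ cell side, fell from 41.5 and 78.5 CPM to 21.8 and 21.2 CPM (−1.48, SE 0.36, adjusted p = 0.0288). Nectin3 was the 1 junction gene of the list that fell, and it was not called without KO replicate 2 or WT replicate 2.

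Among cells outside the tubule the stromal and matrix list had 11 rises among 16 genes, with a median of 0.76 (−0.07 with Sertoli scaling), and 3 rises without KO replicate 2, WT replicate 1 or WT replicate 2. Endothelial genes rose in 4 of 12 cases, peritubular myoid genes in 3 of 12 and macrophage genes in 0 of 14, though 3 macrophage genes rose without WT replicate 2. The endothelial rises were Cdh5, Kdr, Tek and Eng, and the myoid rises Mylk, Des and Myl9. Both numbers of rises were lower without KO replicate 2 or either WT library of 19 dpp, and the myoid number was higher without either WT library of 25 dpp. Macrophage genes differed between the WT libraries themselves, at geometric means of 6.25 and 14.0 CPM in WT against 18.6 and 13.8 CPM in KO. Leydig genes did so too, at 9.56 and 27.2 CPM in WT against 30.0 and 35.2 CPM in KO, with 2 rises among 15 genes, 6 without WT replicate 2 and 1 without KO replicate 2, WT replicate 1 or either KO library of 25 dpp. Star, the cholesterol carrier of steroid synthesis, stood at 17.6 and 30.6 CPM in WT against 120 and 60.1 CPM in KO and did not pass (1.90, SE 0.76, adjusted p = 0.123), and Fdxr, which feeds electrons to steroid-making enzymes, rose from 43.9 and 65.0 CPM to 102 and 92.4 CPM (0.84, SE 0.22, adjusted p = 0.0308). The other Leydig rise was Scarb1, and the 2 rises among 15 stood beside 8.8% of all genes tested. Cholesterol synthesis had 3 falls among 19 genes, and 1 without KO replicate 2 or WT replicate 2, and 13 with Sertoli scaling. Of all genes tested 13.2% fell, beside 3 of these 19. Blood genes were highest in KO replicate 1, with a summed level of 370 CPM against 56.6 in KO replicate 2 and 56.3 and 129 in WT. The 8 epididymis markers had summed levels of 3.28 and 3.39 CPM in WT against 5.49 and 4.26 CPM in KO. Of these, 2 were tested, 1 with a positive and 1 with a negative fold change, and neither was called.

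Genes of glia, the support cells of nerves, rose in 5 of 10 tested cases, with a median of 1.12 (0.30 with Sertoli scaling). Sox10, the master regulator of Schwann cells, stood at 3.18 and 3.59 CPM in WT against 15.9 and 12.0 CPM in KO (2.04, SE 0.33, adjusted p = 0.00904). S100b stood at 3.60 and 4.43 CPM in WT against 14.3 and 11.5 CPM in KO (1.68, SE 0.34, adjusted p = 0.0141), and Erbb3, a neuregulin receptor, at 11.4 and 3.97 CPM in WT against 27.9 and 27.6 CPM in KO (1.86, SE 0.47, adjusted p = 0.0313). Both KO libraries were above both WT libraries in each of the 3, and Mbp and Cdh19 were the other rises. The count of 5 was 2 without KO replicate 2 and 3 without either WT library of 19 dpp, and with Sertoli scaling 2 rose and 2 fell.

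Several of the largest rises above 50 CPM were in no list. Adh1, alcohol dehydrogenase, went from 16.4 and 14.1 CPM to 54.5 and 82.6 CPM (2.17, SE 0.26, adjusted p = 0.00714). Itgb8, an integrin that activates TGF-beta, went from 24.6 and 14.7 CPM to 75.2 and 65.1 CPM (1.83, SE 0.25, adjusted p = 0.00756). Pappa, a protease that frees insulin-like growth factors, went from 13.6 and 20.3 CPM to 61.7 and 66.4 CPM (1.92, SE 0.43, adjusted p = 0.0222). In Padi2, an arginine deiminase, and Scara3, a scavenger receptor, the WT libraries differed, with 55.4 and 22.4 CPM and with 76.5 and 28.3 CPM. Their KO levels were 157 and 128 CPM for Padi2 (1.88, SE 0.49, adjusted p = 0.0371) and 213 and 167 CPM for Scara3 (1.86, SE 0.46, adjusted p = 0.0330). Of 26 p53 targets and cell death genes 4 rose (Bcl2, Bcl2l11, Mcl1 and Sesn1) and 4 fell (Mdm2, Pmaip1, Perp and Aen), numbers that were 0 and 1 without KO replicate 2, 1 and 3 without WT replicate 1, 1 and 2 without WT replicate 2, and 2 and 2 without either KO library of 25 dpp. Of all genes tested 8.8% rose and 13.2% fell, beside 4 and 4 of these 26. With Sertoli scaling 0 of the 26 rose and 10 fell, and the median of 0.43 became −0.40.

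Whether these differences held was tested as the log2 fold change of KO over WT at 25 dpp minus that at 19 dpp. In edgeR this difference was called, at an adjusted p under 0.05, as positive for 1793 genes (7.68%) and negative for 2671 (11.4%). Genes counted as higher or lower below are such calls. The 2 numbers were 542 and 2351 with Sertoli scaling and 5548 and 1969 with total counts. Most early meiotic genes had a less negative fold change, or a positive one, at 25 dpp. The median difference was 1.83 for meiotic entry, with 11 of 15 genes called, 1.79 for the synaptonemal complex, with 10 of 12, 1.81 for break formation, with 7 of 8, and 1.97 for strand exchange, with 15 of 20. In these lists 14, 11, 8 and 19 genes had a positive difference, and none was called in the other direction. Of the 3 others, Dmrtb1 stood at 926 and 637 CPM in WT against 39.9 and 37.6 CPM in KO at 25 dpp (difference of −2.47, adjusted p = 0.0567), and 1 gene of meiotic entry was called lower without KO replicate 1 or WT replicate 2 of 19 dpp, with limma-voom, with the DESeq2 Wald test and with the filter at 5 CPM. With Sertoli scaling the medians were 1.52, 1.49, 1.51 and 1.68, with 7, 5, 3 and 11 genes called, and without KO replicate 1 of 19 dpp 8, 5, 3 and 8 were called. The counts were 4, 4, 3 and 8 without KO replicate 1 of 25 dpp, 4, 3, 2 and 6 without KO replicate 2 of 25 dpp, and 7, 5, 4 and 8 without WT replicate 1 of 25 dpp, and break formation had 4 without WT replicate 1 of 19 dpp. Sycp3, for example, stood at 274 and 326 CPM in WT against 357 and 459 CPM in KO at 25 dpp, a difference of 2.58 from its 19 dpp fold change (adjusted p = 0.0143). Dmc1 stood at 35.7 and 42.6 CPM in WT against 111 and 142 CPM in KO at 25 dpp (difference 2.86, adjusted p = 0.0104). The WT levels of Dmc1 were lower at 25 than at 19 dpp while the KO levels were higher.

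Later genes had no such common shift. The median difference was 0.70 for the piRNA pathway, with 6 genes called higher and 1 called lower. It was 0.12 for meiotic transcription, with 3 and 3 called, and 0.14 for pachytene genes, with 1 and 2. The last 2 medians were −0.19 each with Sertoli scaling and 0.67 and 0.68 with total counts. The pachytene median was −1.37, with 1 and 4, without WT replicate 2 of 19 dpp and 0.93 without WT replicate 1 of 19 dpp, and that of meiotic transcription was 0.89, with 5 and 1, without KO replicate 2 of 19 dpp and −0.12 without KO replicate 1 of 19 dpp, so that neither sign held over the libraries left out. Of the 6 piRNA genes 0 were called without KO replicate 1 of 19 dpp, without either KO library of 25 dpp or without WT replicate 1 of 25 dpp, and 3 without WT replicate 2 of 19 dpp. Tdrd6 stood at 1532 and 1134 CPM in WT against 17.4 and 38.5 CPM in KO at 25 dpp, and its difference was not called (0.63, adjusted p = 0.706). Rfx2 was at 543 and 399 CPM in WT against 42.8 and 60.1 CPM in KO at 25 dpp, with a difference of −0.04 that was not called. The levels of both genes were higher at 25 than at 19 dpp in each genotype, a comparison not tested here. Nectin3 and Tbpl1 had a larger deficit at 25 dpp, with differences of −1.94 (adjusted p = 0.0391) and −1.68 (adjusted p = 0.00958). Stromal genes had a median difference of −0.84 (−0.30 with total counts) with 7 of 16 lower, and between 2 and 3 without either KO library of 25 dpp, either KO library of 19 dpp or WT replicate 1 of 19 dpp. The glial gene S100b, higher in KO at 19 dpp, was at 1.94 and 2.72 CPM in WT against 0.703 and 1.17 CPM in KO at 25 dpp (difference of −3.00, adjusted p = 0.00959). Of X-linked genes 24.3% were called higher and 3.98% lower in fold change at 25 dpp, against 8.77% and 13.7% of autosomal genes. Without KO replicate 1 of 19 dpp these shares were 4.94% and 1.07%, against 0.992% and 4.56%, and with 1 other library left out the higher X-linked share lay between 5.62% and 30.8%.

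**Figure D5:**
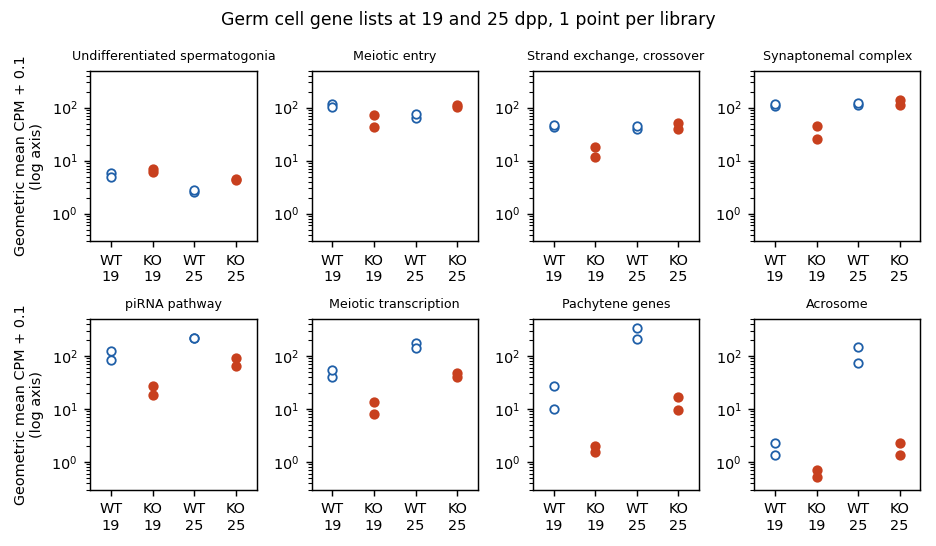
Geometric mean level of 8 germ cell gene lists in all 8 libraries, by genotype and age in dpp (CPM plus 0.1, log axis; 1 point per library, n = 2 per group). The synaptonemal complex list lies in KO at 25.7 and 44.7 CPM at the first age and 112 and 137 CPM at the second, where WT lies at 112 and 124 CPM, while the pachytene list lies at 9.76 and 16.9 CPM in KO at 25 dpp, beside 335 and 214 CPM in WT.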

How the data were processed

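Stranded mRNA libraries were built from DNase-treated Trizol RNA of whole testes, per the labels' protocols. Reads were aligned to mm10 with STAR 2.7.0a and counted with featureCounts 1.5.1, per the submitters' processing notes. The annotation, the strand setting and the counting of multi-mapped reads are not given in the sources used here. The authors deposited raw counts, 1 file per library, with 54087 gene entries and 1205 repeat families, which were left out of library sizes and tests and held 5.20% to 5.68% of the 19 dpp counts. A count of 0 allows up to 3 counts, or 0.0904 to 0.133 CPM of the 19 dpp gene totals, for counting error only. Counts of the 2 libraries of a group differed by more than sampling noise (chi-square per gene 43.5 in WT and 16.1 in KO at 19 dpp).

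A robust quasi-likelihood model with a mean for each of the 4 groups was fitted to all 8 libraries in edgeR 4.0.16 (R 4.3.3), with TMM factors, for the 23353 genes that passed filterByExpr, and had 4 residual degrees of freedom. The contrasts were KO against WT at 19 dpp and its difference from 25 dpp, with Benjamini-Hochberg adjustment at 0.05. SE values were obtained by dividing the size of the log2 fold change by the square root of its F statistic. The procedure was also run on simulated counts in which few genes changed at 19 dpp and the groups were otherwise alike. The data here differ from that setting, so the run is not a check of these calls. Positions are from GENCODE M21 (GRCm38), matched by symbol for 28413 entries and by synonym for 250, and promoters from RefSeq.

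Members and lists were chosen with earlier results of these data known. Dnmt3a, the 10 largest changes in each direction above 50 CPM in the higher group with at least 1 count in each library of the lower group, every member of lists of up to 16 genes, the 6 lowest p and 4 highest levels of longer lists, and the pairs could be named, 367 genes in all. Names starting with Gm or holding Rik were barred. The text gives values for 131 genes, 110 of them called, a choice made after the values were seen. Of these, 21 lie outside the rule, Maged1, Rps6ka6 and Tex16 among them, as do genes of longer lists named only as other calls. A few members of the lists are counted but not reported by name here. Of the 131 genes 10 overlap an exon of another protein-coding gene, and Igf2 does so on the same strand.

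Alternatives were 3 other scalings (DESeq2 size factors, total counts, Sertoli genes), other filters (none, or 5 CPM in at least 2 libraries), limma-voom (limma 3.58.1), the DESeq2 1.42.0 Wald test, only the 19 dpp libraries, a replicate block and leaving out each library. With 1 library left out the lone library of its group is assumed to vary like the others.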

Additional observations from a re-analysis of the deposited data

Results flagged for a closer look

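The log2 fold change of KO over WT was tested for a difference between the ages, as its value at 25 dpp minus that at 19 dpp, in the edgeR fit of all 8 libraries. Of the 131 genes given with values, 38 had a difference with a Benjamini-Hochberg adjusted p under 0.05, 31 of them higher and 7 lower at 25 dpp. All values here are these differences on the log2 scale.

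Genes of the chromosome axis, cohesins and synaptonemal complex had some of the larger positive differences, with 3.21 for Rad21l, 2.94 for Hormad2, 2.58 for Sycp3, 2.46 for Hormad1, 2.19 for Sycp1 and 1.16 for Fkbp6. The mitotic cohesin Smc1a had 0.72. Recombination genes followed, with 2.99 for Meiob, 2.86 for Dmc1, 2.50 for Msh4, 2.37 for Hfm1, 2.33 for Zcwpw1, 2.00 for Mei1, 1.51 for Brca2 and 1.49 for Ccdc36. At meiotic entry the values were 2.76 for Stra8, 2.47 for Scml2, 2.15 for Dazl, 1.83 for Meioc and 1.27 for Kit. In the piRNA pathway Mov10l1 had 1.85 and Piwil2 had 1.51.

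Among other germ cell genes Prss50 had 3.07, Pax7 had 2.34 and the carrier Slc25a31 had 1.36. Tktl1 and Tktl2, members of 1 pair, had 2.67 and 2.17. The X-linked genes Tex16 and Rps6ka6 had 2.66 and 2.06. Of genes expressed in somatic cells, Wt1 had 0.86 and Adam10 had 0.67.

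Lower differences were found for Ldha (−3.30), S100b (−3.00), Shisa6 (−2.85), Adam12 (−1.96), Nectin3 (−1.94), Tbpl1 (−1.68) and Cdc25a (−1.03). Shisa6 and S100b were higher in KO at 19 dpp and lower in KO than in WT at 25 dpp by their library values, while Ldha rose in WT with age by its library values, from 82.6 and 213 CPM to 1530 and 1119 CPM, and stayed below 83 CPM in KO.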

How the results depend on the processing

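The 2054 genes that rose became 1285 with total counts, 113 with Sertoli scaling and 3380 with the Wald test of DESeq2. Less KO replicate 1 of 19 dpp, an alternative chosen after seeing the data, DESeq2 called 1244 and limma-voom 0, and with each library left out in turn edgeR called 0 to 2725. The 3091 genes that fell became 10119 with Sertoli scaling, 0 with limma-voom less that library, and 0 to 2907 with each library left out. The 4464 differences between the ages became 7517 with total counts, 2893 with Sertoli scaling, 7884 with the Wald test, 0 with limma-voom less that library, and 1117 to 5624 with each library left out.

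With Sertoli scaling, which sets a group of Sertoli genes level by construction, the sign turned for Tet1 (−0.14), Tet3 (−0.11), Ccnd2 (−0.32), Rec8 (−0.56), Smc1a (−0.35), Pnldc1 (−0.74), Cdc25a (−0.68), Adam9 (−0.32), Adam10 (−0.22), Adam17 (−0.74), Pdha1 (−0.0504), Cox6b1 (−0.58), Cox7b (−0.0202), Cox8a (−0.28), Slc25a5 (−0.0406), Rpl10 (−0.15), Rpl39 (−0.0484), Aldh1a1 (−0.0114), Cyp26b1 (−0.0604) and Wt1 (−0.11), and another 27 of the 131 genes lost their call. Pnldc1 also turned with total counts (−0.0042) and without replicate 2 of KO at 19 dpp (−0.0698), within a range up to 0.1953 over the libraries left out. Calls were lost by 9 genes with total counts, 15 without a filter, 4 with limma-voom (Rad21l, Spag17, Adam5 and Nectin3), 3 with only the 19 dpp libraries (Dmrtb1, Dmc1 and Scml2) and 0 with DESeq2 size factors. The cause of these losses was not tested.

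Replicate numbers are shared between the groups, but nothing in the labels says that they pair libraries, and deviations of same-numbered WT and KO libraries at 19 dpp correlated at 0.0483 across genes. Over the 6 pairs of groups these correlations lay between −0.0877 and 0.361, the latter for WT at 19 dpp and KO at 25 dpp. With the replicate block 2003 genes rose, 2960 fell and 4348 differed between the ages, and Smc1a, Adam9 and Scml2 lost their calls. With 2 libraries per group and 22515812 to 33192200 gene counts per 19 dpp library, genes near 1 CPM rest on few reads, and a lone deviating library can end a call at any level.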
